A study of Mus musculus with 6 samples.

Results

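The genes described here are 35 genes of fatty acid oxidation, ketogenesis and the targets of PPARA, followed through the livers of mice of 3 genotypes on Affymetrix 430A and 430B arrays. They were taken by gene symbol from a fixed list, chosen with earlier results of these data known. Of the 35, 34 had a probe set (a group of probes read as 1 value) that the platform annotation assigned to a single gene, out of 18193 such genes in all, and Acsl1 was not analysed here. The 34 genes had 58 probe sets, 51 on 430A and 7 on 430B. Of these genes, 16 had 1 probe set and 18 had 2 or more. Except for Ppara, each gene was read on 430A.

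All mice were males on a hybrid B6SJL background, 32 to 37 days old, and all, the WT mice included, received doxycycline at 25 µg/ml and sucrose at 2.5% in the drinking water for 4 days. WT mice were non-transgenic. LT livers carried the ApoErtTA:TRE2-TAg transgenes and were induced to make LT, the large T antigen of the virus SV40, together with its small antigen st. The 17kT livers made 17kT, a shorter splice product that shares the first part of LT, also with st, and their genotype is spelt ApoErtTA:TRE2-TAg in some labels and ApoErtTA:TRE2-TA in another. The rtTA protein switches on a TRE-linked gene when doxycycline is present, and the labels name its promoter only through the name ApoErtTA. The WT mice lacked it, so an effect of ApoErtTA and one of the viral proteins cannot be told apart against WT. Each genotype gave 1 array of each design, 6 arrays in all, and the labels do not say how many animals stand behind an array. With 1 array a group there was no replicate and no test, and every difference below compares arrays.

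Liver burns fatty acids when glucose is scarce. Long chains are joined to coenzyme A, carried into mitochondria as carnitine esters and shortened there in repeated cycles, while very long and branched chains are first shortened in peroxisomes. The acetyl-CoA that results is turned into ketone bodies for other organs. PPARA, a nuclear receptor that binds fatty acids, pairs with RXR on direct repeats of a hexamer spaced by 1 base, called DR1, and is known for switching on these genes in fasted liver.

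The 250 bases before the start site were available for 29 of the 35 genes (RefSeq, build GRCm38.p6), and the promoters of Fabp1 and Cpt1a are shown because Fabp1 fell and Cpt1a rose in 17kT liver while both hold the hexamer. Fabp1 lies on the plus strand and its window is chr6:71199629-71199878. That of Cpt1a, also on the plus strand, is chr19:3323051-3323300. Capitals mark matches, on either strand, to the hexamer AGGTCA or to the DR1 pattern AGGNCANAGGNCA, which holds the hexamer where its N is T.
Fabp1: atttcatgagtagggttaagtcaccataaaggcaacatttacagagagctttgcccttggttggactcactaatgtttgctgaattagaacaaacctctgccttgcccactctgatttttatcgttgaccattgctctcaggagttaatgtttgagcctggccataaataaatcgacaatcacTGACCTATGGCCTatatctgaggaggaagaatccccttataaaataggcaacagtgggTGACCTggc
Cpt1a: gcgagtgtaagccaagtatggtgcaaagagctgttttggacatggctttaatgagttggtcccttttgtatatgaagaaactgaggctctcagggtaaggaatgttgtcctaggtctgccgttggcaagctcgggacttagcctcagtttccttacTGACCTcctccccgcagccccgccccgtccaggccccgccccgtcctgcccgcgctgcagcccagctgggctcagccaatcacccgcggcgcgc
Fabp1 had the DR1 match, on the minus strand, from base -67 to base -55 counted from the start site, and it was the only one of the 29 genes with this match, which 0.338% of all 32851 promoter windows held. The hexamer occurred in 6 of the 29 genes (Acadm, Acadvl, Cpt1a, Creb3l3, Fabp1 and Plin2), in 6 of their 32 windows (18.8%) against 14.0% of all windows. A match is a description of the letters and no measure of binding.

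Values are signals, the array's brightness for a probe set on a linear scale, and were compared only within a design. A signal under the median of all signals of its design, 90.4 on 430A and 140.5 on 430B, was set to that floor before ratios were taken. A gene was called higher or lower at a ratio of at least 2-fold, which is 1 on the log2 scale, and "rose" and "fell" are used only for such genes. A fold given as "at least" is a bound, because the gene had been raised to the floor on the dimmer array. All but Fgf21 lay above the floor on all 3 arrays. The log2 ratio from 430B was subtracted from that of 430A over 100 probe sets present on both designs. The SD of this difference was divided by the square root of 2, to give the spread of 1 ratio. The result was 0.23 (LT against WT), 0.28 (17kT against WT) and 0.26 (LT against 17kT). Between probe sets of a gene the SD, divided in the same way, was 0.59, 0.58 and 0.48. The labels do not say whether the arrays of the 2 designs share an RNA. Neither SD can therefore stand for the spread between animals.

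The 8 hepatocyte markers (Alb, Apoa1, Ttr, Ahsg, Cps1, Asgr1, F2 and Tat) were above the floor on every array. The summed signal of the 7 read on 430A was 116280 in WT, 79813 in LT and 66022 in 17kT liver. Of the 8, 3 fell in LT and 5 in 17kT against WT, where 9.01% and 8.64% of all genes fell. This sum moved with genotype, as did the Gapdh control probes, whose ratio of 3' to 5' signal, a sign of RNA integrity, was 5.81 and 6.04 on the WT arrays and between 2.85 and 3.53 on the others. The same ratio for Actb did not set WT apart from LT, at 2.57 and 2.29 on the WT arrays, 2.52 and 2.50 on the LT arrays and 2.13 and 1.72 on the 17kT arrays (430A, then 430B). Fluidics station 2 processed both LT arrays and station 1 all the others, so that station and the LT genotype cannot be told apart. The part of these in the differences from WT was not tested, and in whole tissue fewer hepatocytes and less RNA per hepatocyte cannot be told apart. Of 5 adipocyte markers on the arrays, 3 (Adipoq, Lep and Ucp1) were at the floor throughout, and the summed signal of the list was between 265 and 487. Fabp4 of that list fell in both transgenic genotypes. Of 7 muscle and heart markers, Acta1, Myh6, Myh4, Tnnt3 and Mb were at the floor throughout, and the summed signal of the 5 on 430A was between 175 and 228. Fabp3, read on 430B, was above the floor on every array, at 488 (WT), 271 (LT) and 296 (17kT). Ckm was above the floor on the 17kT array only, at 111. None of the 8 Kupffer cell and macrophage markers passed 2-fold in any comparison, and their summed signal was between 11448 and 13318.

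The 34 genes did not move as 1 block. Against WT, Acaa1b, Decr2, Bdh1, Ppara and Fabp1 fell in both LT and 17kT liver. Ehhadh fell in LT and not in 17kT liver, Vnn1 rose in LT liver, and Angptl4, Pdk4, Cpt1a and Eci2 rose in 17kT liver. Read by the probe set that stands for each gene, mostly its brightest, the other 23 passed the rule against WT in neither. Of these, 22, all but Pex11a, passed it in no comparison. Over all genes measured, 11.1% rose and 9.01% fell in LT against WT, and 9.97% rose and 8.64% fell in 17kT against WT. In LT against 17kT, 4.47% were higher and 4.23% lower. The share of all genes past the rule in both comparisons with WT, or in none, was not counted.

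**Figure D1:**
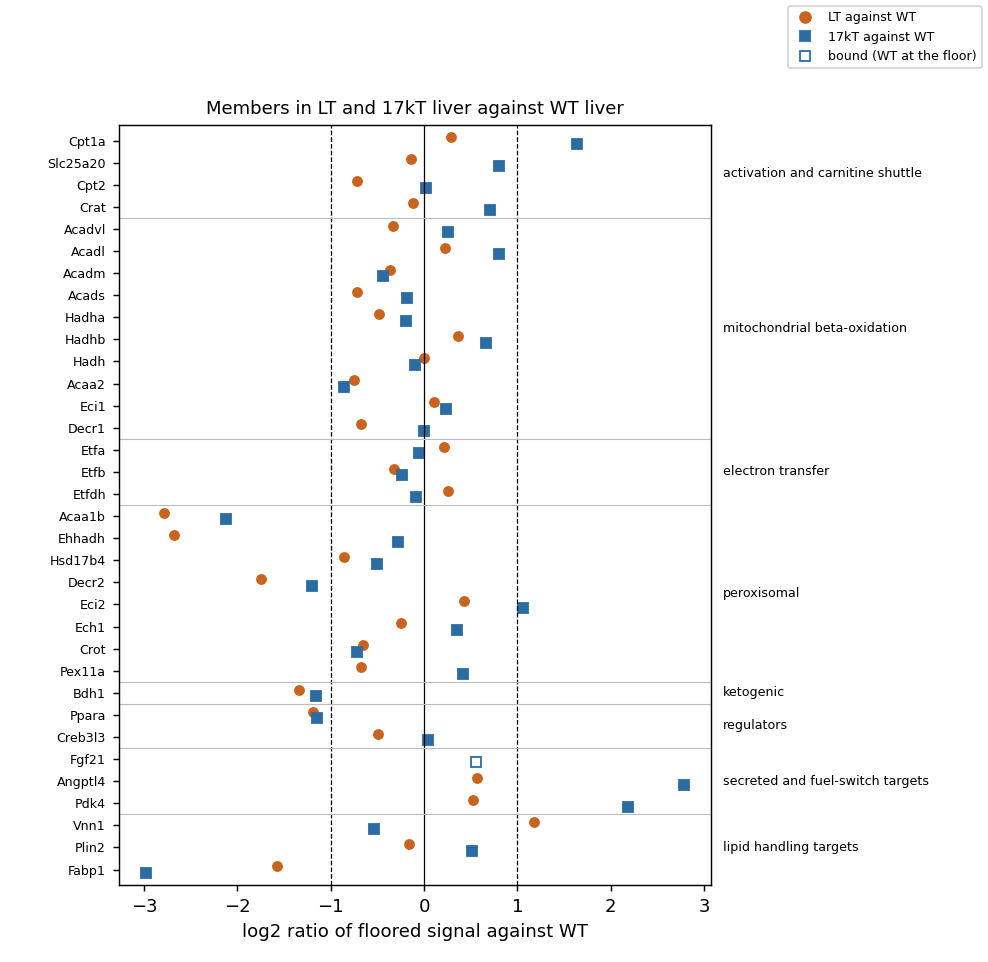
Log2 ratio of the floored signal against WT for each of the 34 genes, grouped by role, in LT (circles) and 17kT liver (squares), with dashed lines at 2-fold and an open mark for a bound. Acaa1b, Decr2, Bdh1, Ppara and Fabp1 lie left of the lower line in both genotypes, and Angptl4, Pdk4, Cpt1a and Eci2 lie right of the upper line in 17kT only; both genotypes are set against the same WT arrays.

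In LT against WT liver, 1 of 33 genes measured was higher and 6 were lower (18.2%). Over all 12775 genes measured, 11.1% were higher and 9.01% lower. The median log2 ratio was -0.33, beside 0.02 for all genes. The count of genes lower ranged from 4 to 8 under the other scalings, floors and choices of probe set tried at 2-fold, and the median from -0.58 to 0.04. The median of all genes moved with it, from -0.27 to 0.41, and that of the listed genes was lower by 0.11 to 0.44 in every setting.

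In 17kT against WT liver, 4 of 34 were higher (11.8%) and 5 were lower (14.7%), against 9.97% and 8.64% of all 12992 genes measured. The share higher was near that of all genes. The median was -0.02, beside 0.07 for all genes, and its sign turned with the scaling, from -0.29 to 0.70 (all genes -0.10 to 0.47). Scaling to the hybridisation controls gave 11 higher and 2 lower, but moved all genes too, of which 24.9% were then higher and 4.92% lower, with a median of 0.47.

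In LT against 17kT liver, a comparison without the WT arrays, 2 of 34 were higher (5.88%) and 5 lower (14.7%), against 4.47% and 4.23% of all 12541 genes measured. The median was -0.55, beside -0.03 for all genes, and 26 of 34 ratios (76.5%) were below 0, beside 52.1% of all genes. The median stayed between -0.90 and -0.38 under every setting tried. Of the 34 ratios, 23 were below 0 and 2 above 0 under all 5 scalings, and 9 turned sign (Acadm, Hadh, Acaa2, Eci1, Etfa, Etfb, Etfdh, Crot and Ppara). Against WT the sign turned for 11 of 33 genes in LT and 15 of 34 in 17kT, none of them past the rule. The offset of 430A from 430B in this comparison was -0.36 (median over the 100 probe sets on both designs), and with the arrays scaled to those probe sets the median of the genes was -0.52, beside -0.13 for all genes.

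**Figure D2:**
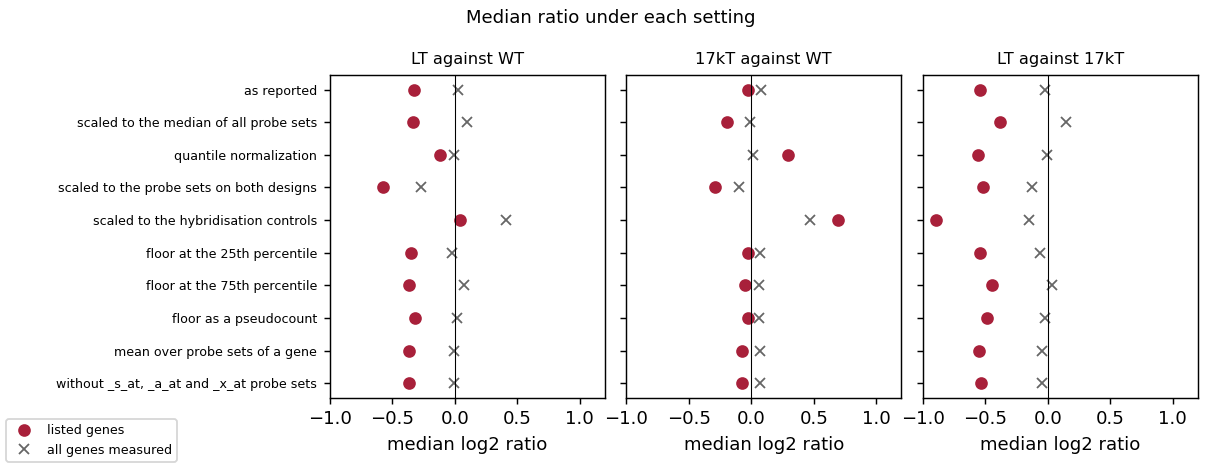
Median log2 ratio of the listed genes (red circles) and of all genes measured (grey crosses) under the reported setting (top line) and other scalings, floors and choices of probe set, in the 3 comparisons. In LT against 17kT the listed genes lie below 0 and left of all genes on every line, whereas in 17kT against WT their median runs from -0.29 to 0.70.

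**Figure D3:**
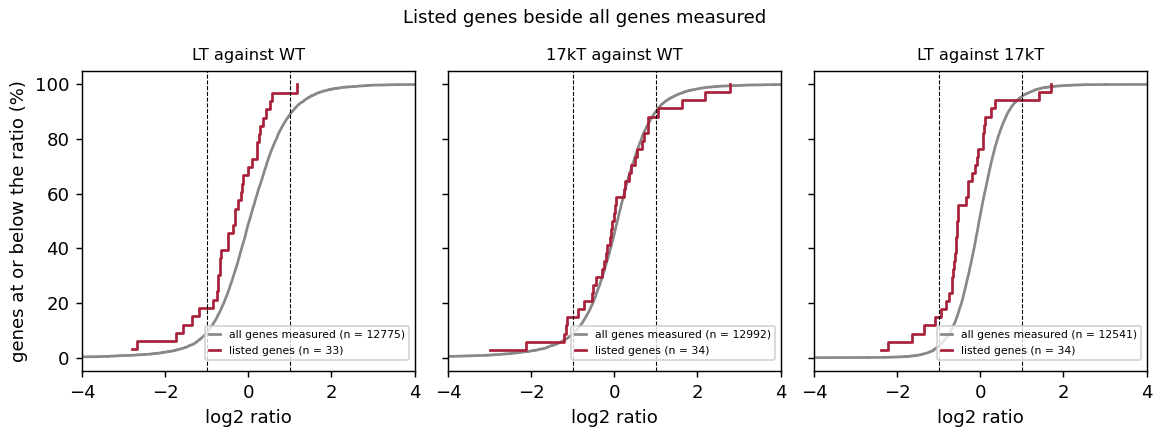
Percentage of genes at or below each log2 ratio, for the listed genes (red) and all genes measured (grey), in the 3 comparisons, with dashed lines at 2-fold. In LT against 17kT the red curve lies left of the grey one over most of its length (medians -0.55 and -0.03), while in 17kT against WT the curves lie close together (medians -0.02 and 0.07).

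Of the 4 genes measured for the entry of fatty acids into mitochondria, Cpt1a rose in 17kT liver, and the probe sets that stand for the other 3 passed the rule in no comparison. Cpt1a encodes carnitine palmitoyltransferase 1A, the regulated gate of the pathway at the outer membrane. Its signal was 1247 on the WT array, 1526 on the LT array and 3879.6 on the 17kT array. It was 3.11-fold higher in 17kT than in WT and 2.54-fold lower in LT than in 17kT, while LT and WT differed by 0.29 on the log2 scale. The other probe sets of Cpt1a, both of the kind that can bind related sequences, read 145 (WT), 161 (LT) and 398 (17kT) and 64.1 (WT), 68.5 (LT) and 193 (17kT), with the 17kT array highest each time. Cpt1a kept its calls in 17kT against WT and in LT against 17kT in all alternatives at 2-fold.

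Slc25a20 encodes the carrier that exchanges acylcarnitine for carnitine across the inner membrane. Its signal was 1242 on the WT array, 1127 on the LT array and 2163 on the 17kT array, so that the log2 ratio was 0.80 in 17kT over WT and -0.94 in LT over 17kT. Neither passed the rule. Cpt2, which returns the acyl group to coenzyme A inside, read 1468 on the WT array, 892 on the LT array and 1495 on the 17kT array. Its LT array was the low one, with log2 ratios of -0.72 against WT and -0.75 against 17kT. A dim _x_at probe set of Cpt2, at the floor in LT, was at least 2.08-fold lower in LT than in WT. Crat, carnitine acetyltransferase, handles short chains and read 172 on the WT array, 158 on the LT array and 281 on the 17kT array, while a 430B probe set of the _x_at kind read 1882 (WT), 872 (LT) and 2073 (17kT). That probe set put LT 2.16-fold below WT and 2.38-fold below 17kT, where the brighter 430A probe set gave log2 ratios of -0.12 and -0.83. A dimmer 430A probe set of Crat, at the floor in LT, read 114 (WT), 63.7 (LT) and 110 (17kT). All 4 genes of this step had a lower signal in LT than in 17kT liver under all 5 scalings, 1 of them past 2-fold, with a median log2 ratio of -0.88. Against WT, all 4 were above 0 in 17kT by the probe set that stands for each (median 0.75). Cpt2, with 0.026, turned below 0 under other scalings. The _x_at probe set of Cpt2 (-0.57) and the dimmer 430A probe set of Crat (-0.048) were below 0. The other probe sets of Cpt1a and Slc25a20 and the 430B probe set of Crat were above 0.

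Of the 10 genes for enzymes of the mitochondrial cycle itself, none passed 2-fold in any comparison by the probe set that stands for it. Other probe sets of Hadhb and Acaa2 did pass. Of all genes, 11.1% were higher and 9.01% lower in LT against WT. The shares were 9.97% and 8.64% in 17kT against WT, and 4.47% and 4.23% in LT against 17kT. The log2 ratios of the 10 genes ran from -0.76 to 0.36 in LT against WT (median -0.35). They ran from -0.86 to 0.80 in 17kT against WT (median -0.05) and from -0.68 to 0.11 in LT against 17kT (median -0.29). The signs of the first 2 medians depended on the scaling.

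The acyl-CoA dehydrogenases, sorted by chain length, open the cycle. Acadvl, for very long chains, read 3551 on the WT array, 2829 on the LT array and 4237 on the 17kT array. Acadl, for long chains, read 2535 on the WT array, 2953 on the LT array and 4413 on the 17kT array, and its 17kT array was the highest (log2 ratio 0.80 against WT). Acadm, for medium chains, read 4727 on the WT array, 3662 on the LT array and 3480.0 on the 17kT array, with the WT array highest, and Acads, for short chains, read 774 on the WT array, 471 on the LT array and 683 on the 17kT array, with the LT array lowest. The log2 ratio of LT against 17kT was -0.58 for Acadvl, -0.58 for Acadl and -0.54 for Acads, but 0.074 for Acadm.

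Hadha and Hadhb encode the alpha and beta subunits of the trifunctional protein, which carries out the remaining steps for long chains. The genes point away from each other, and their 250-base promoter windows on chromosome 5 share 228 bases. Hadha read 2157 on the WT array, 1541 on the LT array and 1879.8 on the 17kT array and Hadhb 2623 on the WT array, 3377 on the LT array and 4149 on the 17kT array, so that the LT against WT ratio was -0.49 for the one and 0.36 for the other. The probe sets of Hadhb disagreed, since another on 430A, of the _x_at kind, read 1148 (WT), 513 (LT) and 1619 (17kT). Its log2 ratios were -1.16 for LT against WT and -1.66 for LT against 17kT. On 430B a probe set of Hadhb at the floor in WT read 37.8 (WT), 236 (LT) and 316 (17kT). The direction of Hadhb in LT against WT liver therefore depended on the probe set.

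Hadh, the dehydrogenase for shorter chains, read 2761 on the WT array, 2755 on the LT array and 2579 on the 17kT array with log2 ratios of -0.003 and -0.10 against WT. Acaa2, the thiolase that closes the cycle, was highest in WT at 9694 on the WT array, 5743 on the LT array and 5333 on the 17kT array. Its log2 ratios were -0.76 in LT and -0.86 in 17kT, while its other probe sets gave -0.38 and -0.49, and -1.07 and -1.08, the last pair just past the rule. The auxiliary enzymes for unsaturated chains were Eci1, an isomerase, which read 1762 on the WT array, 1890.0 on the LT array and 2066 on the 17kT array, and Decr1, a reductase, which read 2053 on the WT array, 1289.5 on the LT array and 2059.6 on the 17kT array. Decr1 was low on the LT array alone, at -0.67 against WT and -0.68 against 17kT, and its other probe set gave -0.95 and -0.95.

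Etfa, Etfb and Etfdh pass the electrons of these dehydrogenases to the respiratory chain. Etfa read 2700.2 (WT), 3134 (LT) and 2604 (17kT), Etfb 8044 (WT), 6449 (LT) and 6813 (17kT) and Etfdh 1183 (WT), 1412 (LT) and 1112 (17kT). None of the 3 passed 2-fold in any comparison, their log2 ratios against WT lay between -0.32 and 0.26, and the sign turned with the scaling in at least 1 comparison for each.

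Among the enzyme genes of the list, the largest decreases against WT were peroxisomal. Of 8 genes, 3 fell in LT against WT and 2 fell and 1 rose in 17kT against WT, while 2 were lower in LT than in 17kT, and the median ratios were -0.77, -0.40 and -0.62. Of all genes, 9.01% fell in LT, 8.64% fell and 9.97% rose in 17kT, and 4.23% were lower in LT than in 17kT. Acaa1b, a peroxisomal thiolase that ends the cycle there, read 14578 on the WT array, 2113 on the LT array and 3344 on the 17kT array. It was 6.90-fold lower in LT and 4.36-fold lower in 17kT than in WT, and kept both calls in all alternatives at 2-fold. Acaa1b has a close paralog, Acaa1a, and the reading is uncertain to the extent that its probes bind both. The probe set that stood for Acaa1a, of the _x_at kind, read 706 (WT), 252 (LT) and 394 (17kT), so both transgenic arrays were below WT there as well.

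Ehhadh, the bifunctional hydratase and dehydrogenase of peroxisomes and a classical PPARA target, set LT apart from both other genotypes. Its signal was 1715 on the WT array, 268 on the LT array and 1409 on the 17kT array. The LT array was 6.40-fold below WT and 5.26-fold below 17kT, in all alternatives at 2-fold, whereas 17kT differed from WT by -0.28, with a sign that turned with the scaling. Ehhadh had 1 probe set.

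Decr2, the peroxisomal counterpart of Decr1, read 618 on the WT array, 184 on the LT array and 269 on the 17kT array, 3.36-fold lower in LT and 2.29-fold lower in 17kT than in WT. The 17kT call was lost when arrays were scaled to the hybridisation controls, with -0.48, or when the floor was added as a pseudocount, with -0.98. Eci2, an isomerase of peroxisomes and mitochondria, went the other way and read 1264 on the WT array, 1695 on the LT array and 2642 on the 17kT array, 2.09-fold higher in 17kT than in WT, close to the rule, and under it when scaled to the median (0.89) or to the probe sets on both designs (0.79). Pex11a, a membrane protein through which peroxisomes multiply, read 378 on the WT array, 238 on the LT array and 504 on the 17kT array. The LT array was lowest and the 17kT array highest, 2.12-fold apart, and the other probe set read 242 (WT), 182 (LT) and 479 (17kT), 2.63-fold apart. The call of Pex11a was lost under 3 alternatives at 2-fold (-0.92 to -0.86). Against WT, the ratios of Pex11a were -0.67 in LT and 0.41 in 17kT.

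The other 3 peroxisomal genes did not pass the rule. Hsd17b4, the second bifunctional enzyme, read 3785 (WT), 2086 (LT) and 2665 (17kT). Ech1, a dienoyl-CoA isomerase, read 2957 (WT), 2491 (LT) and 3786 (17kT). Crot, which makes medium chains into carnitine esters for export to mitochondria, read 3900.2 (WT), 2475 (LT) and 2367 (17kT), and a 430B probe set differed in direction for 17kT, with 184 (WT), 94.3 (LT) and 264 (17kT).

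Bdh1, which interconverts the ketone bodies acetoacetate and beta-hydroxybutyrate, was the ketogenic gene of the list. It read 1584 on the WT array, 624 on the LT array and 712 on the 17kT array, 2.54-fold lower in LT and 2.22-fold lower in 17kT than in WT. Its other probe set read 284 (WT), 112 (LT) and 127 (17kT), with log2 ratios of -1.34 and -1.16. Both probe sets put the transgenic arrays at a similar level below WT. The direction held under all 5 scalings, and scaling to the hybridisation controls took the values to -0.97 and -0.43, below the rule.

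Ppara, the receptor itself, read 2146 on the WT array, 941 on the LT array and 972 on the 17kT array on 430B. It was 2.28-fold lower in LT and 2.21-fold lower in 17kT than in WT, and LT differed from 17kT by -0.047. Another 430B probe set read 571 (WT), 329 (LT) and 271 (17kT), with log2 ratios against WT of -0.80 in LT and -1.08 in 17kT. The probe set of Ppara on 430A was at the floor throughout. The calls of Ppara were lost in some alternatives. LT against WT gave -0.97, -0.69 and -0.99 when scaled to the median, scaled to the hybridisation controls and averaged over probe sets. Scaled to the hybridisation controls, 17kT against WT gave -0.999, just under the rule. Creb3l3, a membrane-bound transcription factor of the liver that acts with PPARA in fasting, read 2383 on the WT array, 1689 on the LT array and 2456 on the 17kT array and passed the rule in no comparison.

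Angptl4 and Pdk4, known as genes of the fasting response, rose in 17kT liver. Angptl4 encodes a secreted inhibitor of lipoprotein lipase. It read 495 on the WT array, 735 on the LT array and 3418 on the 17kT array, 6.91-fold higher in 17kT than in WT and 4.65-fold lower in LT than in 17kT. LT and WT differed by 0.57. Angptl4 was above the floor in 1 probe set of the _s_at kind, which can bind several transcripts, and its other probe set was at the floor throughout.

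Pdk4 encodes the kinase that shuts off pyruvate dehydrogenase and so spares glucose. It read 114 on the WT array, 164 on the LT array and 515 on the 17kT array, 4.53-fold higher in 17kT than in WT and 3.14-fold lower in LT than in 17kT. Its WT signal lay close to the floor of 90.4, and both calls were lost once the floor was raised to the 75th percentile (log2 ratios of 0.89 and -0.89). Fgf21, a hormone that the fasted liver secretes, read 68.3 on the WT array, 15.6 on the LT array and 133 on the 17kT array, at the floor in WT and LT and at least 1.47-fold higher in 17kT than in either, which is under the rule. On all 3 genes the 17kT array was the highest.

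**Figure D4:**
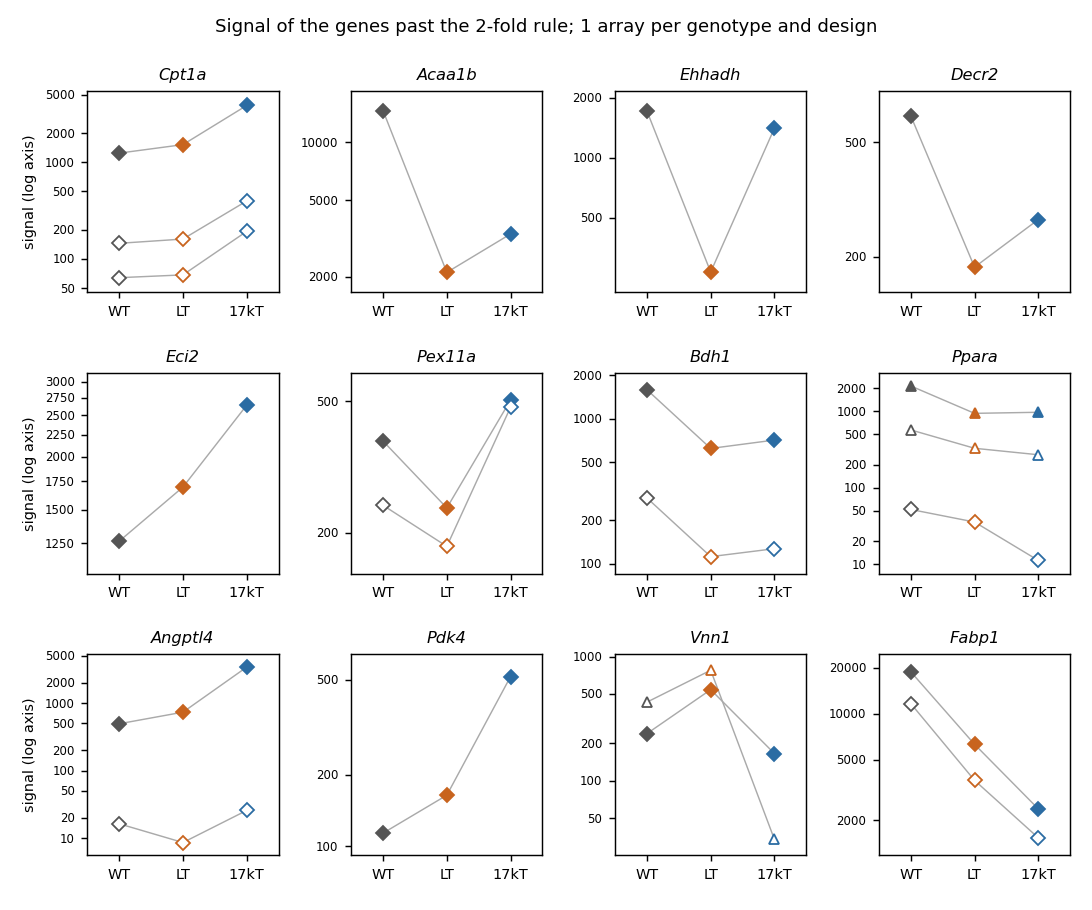
Signal on a log axis of the 12 genes past 2-fold in at least 1 comparison, by genotype, with 1 array per genotype and design (diamonds 430A, triangles 430B, filled marks for the probe set that stands for the gene) and before the floor was applied. Fabp1 steps down from WT to LT to 17kT, Angptl4 and Pdk4 are highest in 17kT, Ehhadh is lowest in LT, and Vnn1 is highest in LT on both designs.

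Genes that handle lipid went in different directions. Fabp1, the fatty acid binding protein of the hepatocyte cytosol whose promoter is shown above, read 18838 on the WT array, 6307 on the LT array and 2382 on the 17kT array. It was 2.99-fold lower in LT and 7.91-fold lower in 17kT than in WT, and LT was 2.65-fold above 17kT. The other probe set read 11658 (WT), 3663 (LT) and 1539 (17kT) and gave the same order. All 3 calls of Fabp1 held in all alternatives at 2-fold. The summed hepatocyte markers had the same order of genotypes, and their part in the ratios of Fabp1 was not tested.

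Vnn1, a pantetheinase bound to the cell surface and a PPARA target, was the one listed gene that rose in LT against WT. It read 240.1 on the WT array, 542 on the LT array and 166 on the 17kT array, 2.26-fold higher in LT than in WT and 3.26-fold higher in LT than in 17kT. On 430B it read 429.9 (WT), 776 (LT) and 33.9 (17kT), at the floor in 17kT, with log2 ratios of 0.85 for LT against WT, -1.61 or lower for 17kT against WT and 2.47 or higher for LT against 17kT. The 2 designs thus had the genotypes in 1 order. The call against WT was lost under 4 alternatives at 2-fold (log2 ratios from 0.85 to 0.97), and that against 17kT held in all. Plin2, the coat protein of lipid droplets, read 6793 on the WT array, 6065 on the LT array and 9674 on the 17kT array and passed the rule in no comparison.

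**Figure D5:**
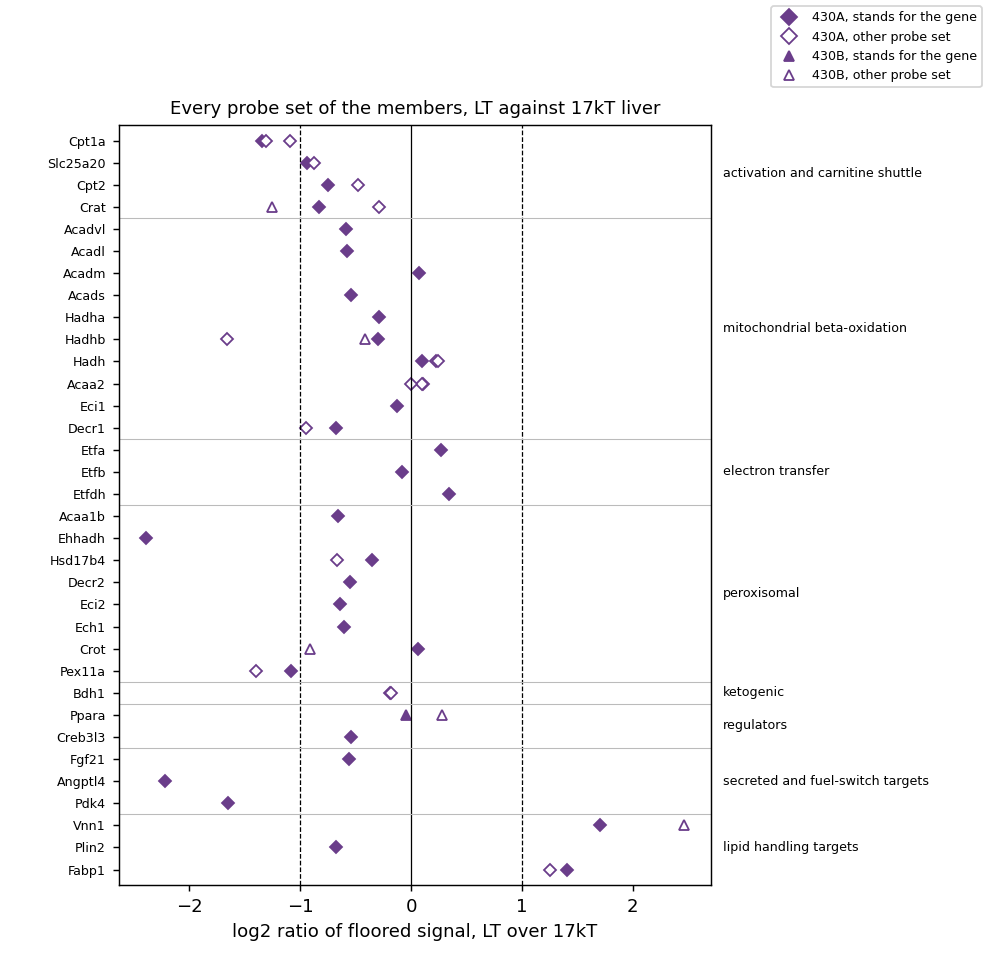
Log2 ratio of LT over 17kT for every probe set of the 34 genes that exceeded the floor in LT, 17kT or both, by role, with filled marks for the probe set that stands for the gene and dashed lines at 2-fold. The filled marks of Ehhadh (-2.40), Angptl4 (-2.22), Pdk4 (-1.65), Cpt1a (-1.35) and Pex11a (-1.08) lie left of the lower line. Those of Vnn1 (1.71) and Fabp1 (1.40) lie right of the upper one. An open mark each of Hadhb (-1.66) and Crat (-1.25) also lies left of the lower line. The marks of Fgf21, of the 430B probe sets of Vnn1 and Crot, and of 1 dim probe set each of Cpt1a, Cpt2, Crat and Hadh are bounds.

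Where a gene had other probe sets above the floor, these had the same sign for 13 of 15 genes in LT against WT, 10 of 15 in 17kT against WT and 13 of 15 in LT against 17kT. The exceptions were Hadh and Hadhb in the first, Cpt2, Crat, Crot, Decr1 and Hsd17b4 in the second, and Crot and Ppara in the last. The probe sets that stand for these genes did not pass the rule in the comparison concerned. The other 430A probe set of Hadhb described above did, in LT against WT, and also passed it in LT against 17kT. Probe sets of a gene lay 2-fold or more apart for Hadhb in LT against WT and LT against 17kT, and for Crot and Vnn1 in 17kT against WT.

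Other genes of the pathway, 72 on the list and 64 on the arrays, fell more often than they rose against WT. The list was chosen with earlier results of these data known, so its counts are a description and no independent test. In LT, 27 of 59 measured were lower and 3 higher, and in 17kT, 20 of 60 were lower and 5 higher. Of all genes, 9.01% were lower and 11.1% higher in LT, and 8.64% and 9.97% in 17kT. The medians were -0.82 and -0.49, beside 0.02 and 0.07 for all genes. In LT against 17kT, 9 of 58 were lower and 2 higher (median -0.16), where 4.23% and 4.47% of all genes were (median -0.03).

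Of these, 18 fell in both genotypes. The ratios of both genotypes share the WT arrays, and the share of all genes that fell in both was not counted. Omega-oxidation, which attacks the far end of the chain, had Cyp4a12a 24.2-fold and 19.7-fold lower in LT and 17kT, and Cyp4a14 9.77-fold and 12.4-fold, though both belong to a family of close paralogs and are uncertain. Branched-chain breakdown in peroxisomes had Hacl1 6.36-fold and 9.73-fold lower, Phyh 3.35-fold and 3.94-fold, and Amacr 2.47-fold and 2.09-fold. The peroxisomal importer Abcd3 read 5423 on the WT array, 1989 on the LT array and 2708 on the 17kT array, 2.73-fold lower in LT and just past the rule in 17kT. Also lower in LT and 17kT were the peroxisome proliferation gene Pex11g 2.34-fold and 2.23-fold, the peroxide-degrading Cat 2.87-fold and 2.81-fold, and the coenzyme A hydrolase gene Nudt7 12.6-fold and 21.0-fold. Acacb, whose product makes the malonyl-CoA that blocks CPT1, was at least 10.6-fold lower in each. The acyl-CoA synthetases Acsm1 (11.5-fold and 10.6-fold) and Acsl5 (3.07-fold and 2.29-fold) fell, as did Bdh2, a cytosolic ketone body dehydrogenase (5.13-fold and at least 6.08-fold), the monoacylglycerol lipase Mgll (3.33-fold and 2.93-fold), the epoxide hydrolase Ephx2 (3.42-fold and 2.46-fold), the kinase Pdk2 (4.12-fold and 3.87-fold), Bbox1 of carnitine synthesis (3.23-fold and 3.09-fold) and Acadsb, a dehydrogenase for short branched chains (2.51-fold and 2.35-fold).

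Slc16a1, a transporter of lactate and ketone bodies, rose 2.98-fold in LT and 2.93-fold in 17kT. Cpt1c, the form of CPT1 known from brain, was at the floor in WT and at least 2.40-fold and at least 10.7-fold higher. Oxct1, the enzyme that uses ketone bodies and is known for being scarce in hepatocytes, read 5.60 on the WT array, 486 on the LT array and 167 on the 17kT array, at least 5.37-fold higher in LT than in WT and 2.90-fold higher in LT than in 17kT. Acsl3, another synthetase, was 2.11-fold higher in LT than in 17kT.

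Lower in LT than in 17kT were Cpt1c (4.48-fold), Txnip, a glucose-responsive gene (3.88-fold), Lpin1, a phosphatidate phosphatase and partner of PPARA (at least 3.19-fold), Retsat (2.59-fold), Slc22a5, the carnitine importer (2.34-fold), the peroxisomal importer Abcd2 (2.22-fold), Aldh9a1 (2.22-fold), the fatty acid transporter Slc27a1 (2.16-fold) and Mlycd (2.01-fold), whose product removes malonyl-CoA, the inhibitor of CPT1. The signal of Slc22a5 was 174 on the WT array, 229 on the LT array and 537 on the 17kT array, and its 17kT array, like that of Cpt1a, was the highest.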

How the data were processed

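The authors deposited 1 linear intensity signal per probe set and array. The submitters' processing notes name MAS5 without a version. The authors had scaled each array, since the 2% trimmed mean was 250.0 or 250.1 throughout. Other entries, instrument settings such as chip type and fluidics station, were read per the file headers. Arrays were scaled within a design to 1 trimmed mean of 250, floored at the 50th percentile and put on the log2 scale (Python 3.11.15, pandas 2.3.3, NumPy 2.4.6). Symbols came from the platform annotation, updated by gene identifier to RefSeq GRCm38.p6. Of 22690 probe sets on 430A, 20393 had 1 symbol, 691 several and 1606 none, and of 22575 on 430B, 14674, 245 and 7656. The brightest probe set relative to its floor stood for a gene, _x_at kinds only where no other existed. Differences of 2-fold were called across all genes, with no test. The code was tested on made-up arrays with known changes. The genes and lists were chosen with earlier results of these data known. All 35 genes of the list were to be named, and of the other pathway genes those past 2-fold against WT in both genotypes in 1 direction or past it in LT against 17kT.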

Additional observations from a re-analysis of the deposited data

Results flagged for a closer look

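Pex11a and Vnn1 lay on opposite sides of WT in the 2 transgenic genotypes and at least 2-fold apart. For Pex11a, LT against 17kT gave a log2 ratio of -1.08, with -0.67 in LT and 0.41 in 17kT against WT. For Vnn1 the values were 1.71, 1.17 and -0.53, and the 17kT value turned above 0 when scaled to the hybridisation controls (0.19). Each rests on 1 array per genotype, both ratios share the WT array, and the difference was not tested.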

How the results depend on the processing

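No alternative reversed a called gene: of 227 values of the 23 calls under the alternatives, 197 kept their call and 30 fell under the rule with the sign unchanged. At 2-fold, 13 of the 23 calls held in every alternative that measured the gene. The medians moved most with the scaling. Scaled to the hybridisation controls, the median of LT against WT became 0.0416, that of 17kT against WT 0.70 and that of LT against 17kT -0.90, beside 0.41, 0.47 and -0.15 for all genes. It gave 11 higher and 2 lower in 17kT against WT (24.9% and 4.92% of all genes) and 11 lower in LT against 17kT (5.60%). Quantile normalization gave 8 higher and a median of 0.29 in 17kT against WT, and scaling to the probe sets on both designs gave a median of -0.58 in LT against WT. The 1 gene higher in LT against WT, Vnn1, became 0 under both of these, with a floor at the 75th percentile, with the floor as a pseudocount and at 3-fold. The higher floor left 3 lower in LT against 17kT. Without _s_at, _a_at and _x_at probe sets, 2 were higher in 17kT against WT, because Angptl4 and Eci2 were then not measured. At 3-fold, 3 were lower in LT against WT, 2 were lower in 17kT against WT, and 3 were lower and 1 higher in LT against 17kT. Apart from that, the cause of these shifts was not tested. No paired analysis was possible because each genotype had 1 array per design, and no replicate could be left out. Signal over the floor limits Pdk4 and Fgf21.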
